A study of Arabidopsis thaliana with 251 samples.

Results

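The conserved microRNA genes of Arabidopsis are the 97 nuclear genes of the TAIR10 annotation whose symbols run from MIR156 to MIR172 and from MIR393 to MIR399, or are MIR319, MIR390, MIR403 or MIR408, with or without a letter. They fall into 28 families and were taken from 37899 annotated nuclear genes, among which 229 other genes also encode microRNAs and 27444 encode proteins. The rule uses the symbol and no measured value. Each gene was read with the 1000 bp upstream of its start, so that a window held 1068 to 1411 bp, with a median of 1124 bp. The annotated gene itself is the hairpin precursor of 68 to 411 bp (median 124 bp).

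The study screened proteins for their ability to silence *FWA*, a flowering repressor, by tethering them to its promoter with the artificial zinc finger ZF108 (ZF). All plants were of the Columbia-0 (Col-0) ecotype, and the leaves came from plants of 4-5 weeks. The *fwa* control and every line with a fusion (LHP1-ZF, MSI1-ZF, JMJ14-ZF, ELF7-ZF, CPL2-ZF, HDA6-ZF, HD2A-ZF, HD2B-ZF, HD2C-ZF and the fluorescent protein control EYFP-ZF) carried the *fwa* epiallele, an inherited unmethylated and expressed state of *FWA*. The lines with an effector were chosen for early flowering, so flowering time and the state of *FWA* cannot be told apart from the fusion in their comparisons with *fwa*. The *elf7* plants were T-DNA mutants (elf7-3) without a fusion, compared with Col-0. ELF7-FLAG and HD2A-FLAG plants expressed the tagged protein from its own promoter, in the elf7-3 mutant for ELF7, and were sampled as unopened flower buds. A FLAG library labelled TRB1-ZF supplied the sites of the zinc finger. This fusion was not among the lines compared with *fwa* for marks, and its genetic background is not given in the sources used here. The promoter that drove the fusion in each sequenced ZF line is not given in the sources used here. LHP1 and MSI1 belong to the Polycomb group, JMJ14 removes methyl groups from H3K4, HDA6 and the HD2 proteins are histone deacetylases, ELF7 is a subunit of the PAF1 complex that travels with RNA polymerase II (Pol II), and CPL2 dephosphorylates the tail of Pol II.

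The data were 108 lists of peaks called in ChIP-seq libraries, 104 from leaves and 4 from the FLAG experiments. A member counted as marked in a library when a peak overlapped its window by at least 1 bp, and the amount of a mark was given as the bp of the window under peaks. The lists hold no read counts, so the depth of a library is unknown and only the number of its peaks could be compared. That number was 10188 to 29961 in the leaf lists used for the comparisons, except for the 4 H3K27me3 lists of SET14 (SET is the submitters' label for libraries to be compared with each other), which held only 2199 and 1149 peaks in *fwa* and 1373 and 940 in EYFP-ZF. Levels of H3K27me3 were therefore read from SET1 and SET2. The labels do not say whether replicate libraries came from separate plants, so their spread may be technical. All values are from whole leaves or buds, in which fewer marked cells and a weaker mark in each cell cannot be told apart.

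Plant microRNA genes are transcribed by Pol II into primary transcripts, from which DICER-LIKE1 (DCL1) cuts a short duplex with the help of HYL1 and SERRATE. HEN1 methylates its ends, and ARGONAUTE1 (AGO1) holds the guide strand and cuts transcripts that pair with it. The conserved families mostly target transcription factors that set developmental timing and organ shape, and a smaller group targets genes for sulfate, phosphate and copper use or the small RNA machinery itself. H3K27me3 is deposited by Polycomb proteins and is known for genes held silent, whereas H3K4me3, histone acetylation, H3K36 methylation and Pol II phosphorylated at Ser5 mark transcribed genes. All Pol II libraries were of the form phosphorylated at Ser5, and a Pol II peak below means a peak of that form.

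The members encoded only 55 distinct guide sequences, 20 to 24 nt long, read here from the RefSeq annotation of TAIR10.1, with the arm taken as the guide set by hand for each family from general knowledge. A guide sequence shared by several genes cannot be assigned to a gene from the RNA, whereas the chromatin of each gene was measured on its own. In all, 23 guide sequences were encoded by more than 1 member, which covered 66 members, and 30 seeds were found. The guides below belong to the genes on which the results turn and are written 5′ to 3′ with the seed, bases 2 to 8, in capitals.
miR156a to miR156f: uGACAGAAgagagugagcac
miR157a to miR157c: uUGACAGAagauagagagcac
miR166a to miR166g: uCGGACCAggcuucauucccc
miR165a and miR165b: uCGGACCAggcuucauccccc
miR169h to miR169n: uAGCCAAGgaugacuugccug
miR172a and miR172b: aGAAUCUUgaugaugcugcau
miR172c and miR172d: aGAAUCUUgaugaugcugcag
miR172e: gGAAUCUUgaugaugcugcau
miR162a and miR162b: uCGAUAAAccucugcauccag
miR168a and miR168b: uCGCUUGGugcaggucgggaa
miR403: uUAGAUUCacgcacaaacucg
miR395a, miR395d and miR395e: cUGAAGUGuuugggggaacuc
miR395b, miR395c and miR395f: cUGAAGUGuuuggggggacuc
miR396a: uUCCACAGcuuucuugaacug
miR396b: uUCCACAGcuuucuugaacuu
The guides of miR165 and miR166 shared the seed CGGACCA, and 11 members shared the seed GACAGAA (MIR156a to MIR156j and MIR157d). A U was the first base of 79 of 98 guides.

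H3K27me3 was the mark that covered most of the conserved microRNA genes in *fwa* leaves. It was present at 57 members in SET1 and at 57 in SET2 (58.8% of 97), at 49 of them in both libraries and at 32 in neither. Among other microRNA genes the share was 25.8% ± 3.09 (SD, n = 2 libraries), among protein-coding genes 27.8% ± 1.41 and among all nuclear genes 24.7% ± 1.33. The windows of protein-coding genes are longer (median 3078 bp), which favours an overlap there. In a window of fixed length, from 1000 bp upstream to 200 bp downstream of the start, the shares were 59.3% ± 0.729 for the members and 20.4% ± 1.66 for all genes. These are descriptions of gene groups, and no test was run between them.

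Every active histone mark was found at fewer members than in the genome as a whole. H3K4me3 was present at 36.3% ± 2.71 of members (n = 4 *fwa* libraries) and at 52.7% ± 1.44 of all genes. The values were 37.6% against 52.6% for H3K9ac, 36.3% against 61.1% for H3K14ac, 35.2% against 54% for H3K27ac and 27.6% against 45.3% for H4K16ac. Other microRNA genes had less H3K4me3 than the members, at 28.2% ± 2.15 of genes, but more H3K36me2, at 31.9% ± 2.47. H3K36me3 was present at 24.7% of members against 49.8% of all genes. The gap was widest for H3K36me2, with 18% ± 0.729 of members (n = 2) against 56.2% ± 1.82, and it narrowed to 19.1% against 29.4% in the fixed window. Pol II stood apart from the histone marks. In the full window it lay at 36.3% ± 5.35 of members and 42.5% ± 8.18 of all genes (n = 6), but in the fixed window the order turned, with 36.8% ± 5.44 of members against 30.8% ± 8.2 of all genes. The start of a member is that of its hairpin, inside the primary transcript, so the fixed windows of the groups are not alike.

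**Figure D1:**
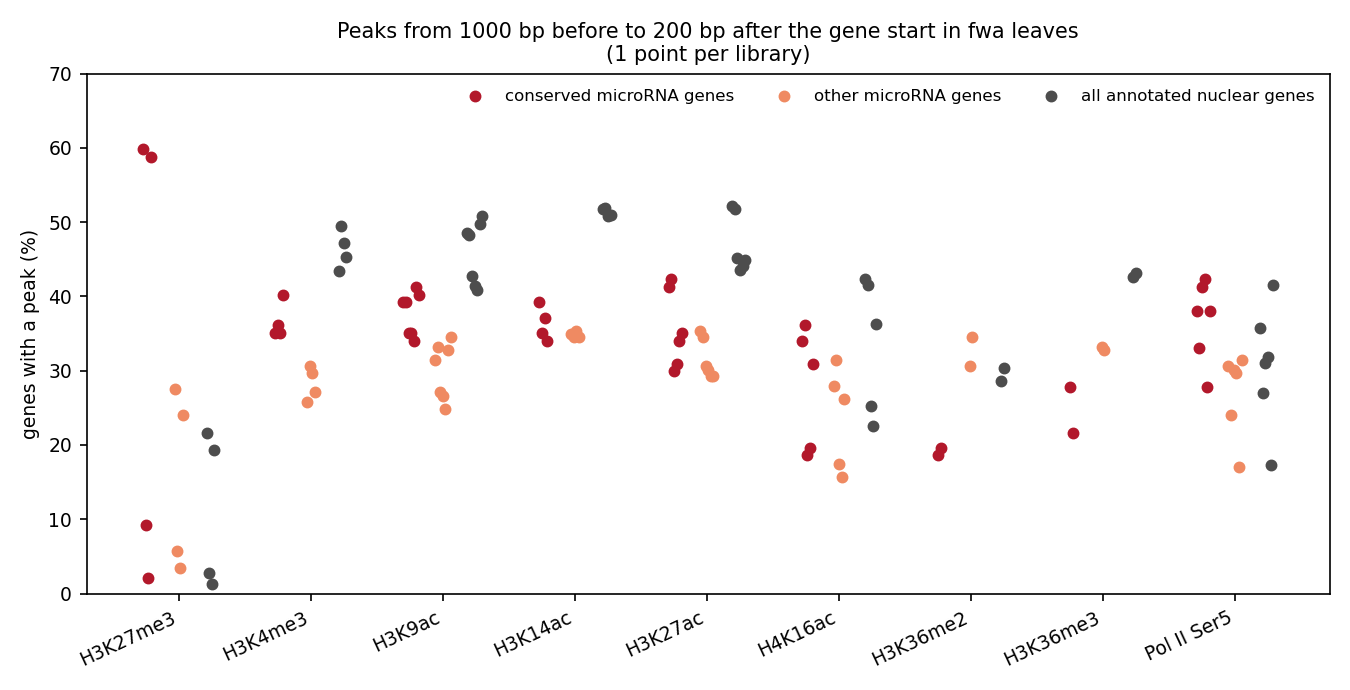
Share of genes with a peak (percent, vertical axis) in each *fwa* library for each mark, for conserved microRNA genes, other microRNA genes and all nuclear genes, in the fixed window from 1000 bp upstream to 200 bp downstream of the start. The members stand far above the other groups for H3K27me3 of SET1 and SET2 (59.3% on average against 20.4% of all genes), on average below all genes for the active histone marks, and at 36.8% against 30.8% for Pol II. The lower pair of H3K27me3 points in each group is SET14.

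The mark lay over the hairpin itself. The share of members under an H3K27me3 peak was highest 50 bp downstream of the start, at 50%, and was 49% at the start. In protein-coding genes it was highest 350 bp downstream, at 16%, and in other microRNA genes at the start, at 16.2%. Pol II also had its highest share of members at the start, 30.4%, whereas protein-coding genes had 12.1% there and at most 22.5% at 200 bp. For H3K4me3 the highest share of members was 28.9% at 100 bp, below the 53.6% of protein-coding genes at 400 bp. Distances are counted from the hairpin in members and from the start of the whole annotated gene in protein-coding genes. Positions therefore cannot be compared directly between these groups.

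**Figure D2:**
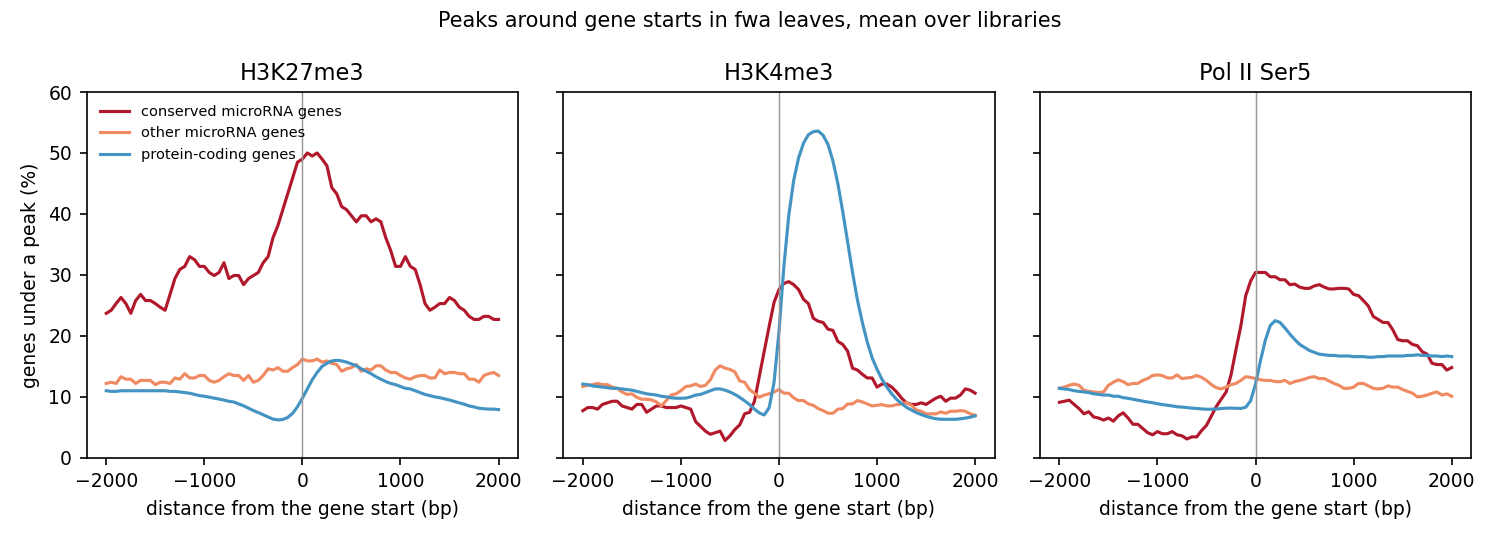
Percent of genes under a peak (vertical axis) by distance from the annotated start in bp (horizontal axis), mean over *fwa* libraries (for H3K27me3, those of SET1 and SET2), for members, other microRNA genes and protein-coding genes. Members have their highest H3K27me3 share, 50%, at 50 bp, and their highest Pol II share, 30.4%, at the start. The start is that of the hairpin for members and of the whole annotated gene for protein-coding genes.

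H3K27me3 and the active marks mostly occupied different members. Of the 49 members with H3K27me3 in both libraries, 36 had H3K4me3 in none of the 4 *fwa* libraries and 6 had it in all of them, namely MIR156c, MIR156d, MIR158a, MIR160a, MIR163 and MIR166a. The share with H3K4me3 in none, 73.5%, was near that of all nuclear genes with H3K27me3 (66.6%) and of other microRNA genes (72.5%). Pol II lay in all 6 *fwa* libraries at 4 of the 49 (8.16%) and in none at 33 (67.3%). Of the 32 members without H3K27me3, 15 (46.9%) had Pol II in all libraries and 12 (37.5%) in none. Over all nuclear genes, Pol II in all libraries was found at 12.1% of genes with H3K27me3 and at 30.3% of those without. The latter share was below the 46.9% of members. Pol II in none was found at 65.4% and 36.9% of all nuclear genes, near the shares of the members. There were 23 members with H3K27me3 in both libraries and no peak of any other mark in any leaf library, among them MIR156a, MIR156e, MIR156f, MIR157b, MIR157d, MIR319b, MIR397a and 4 of the 6 MIR399 genes. At the other end, MIR159b and MIR398a carried every active mark and Pol II in all *fwa* libraries, although their windows also overlapped other genes (AT1G05377 and NRP1). MIR166d was without a peak in all 104 leaf libraries.

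**Figure D3:**
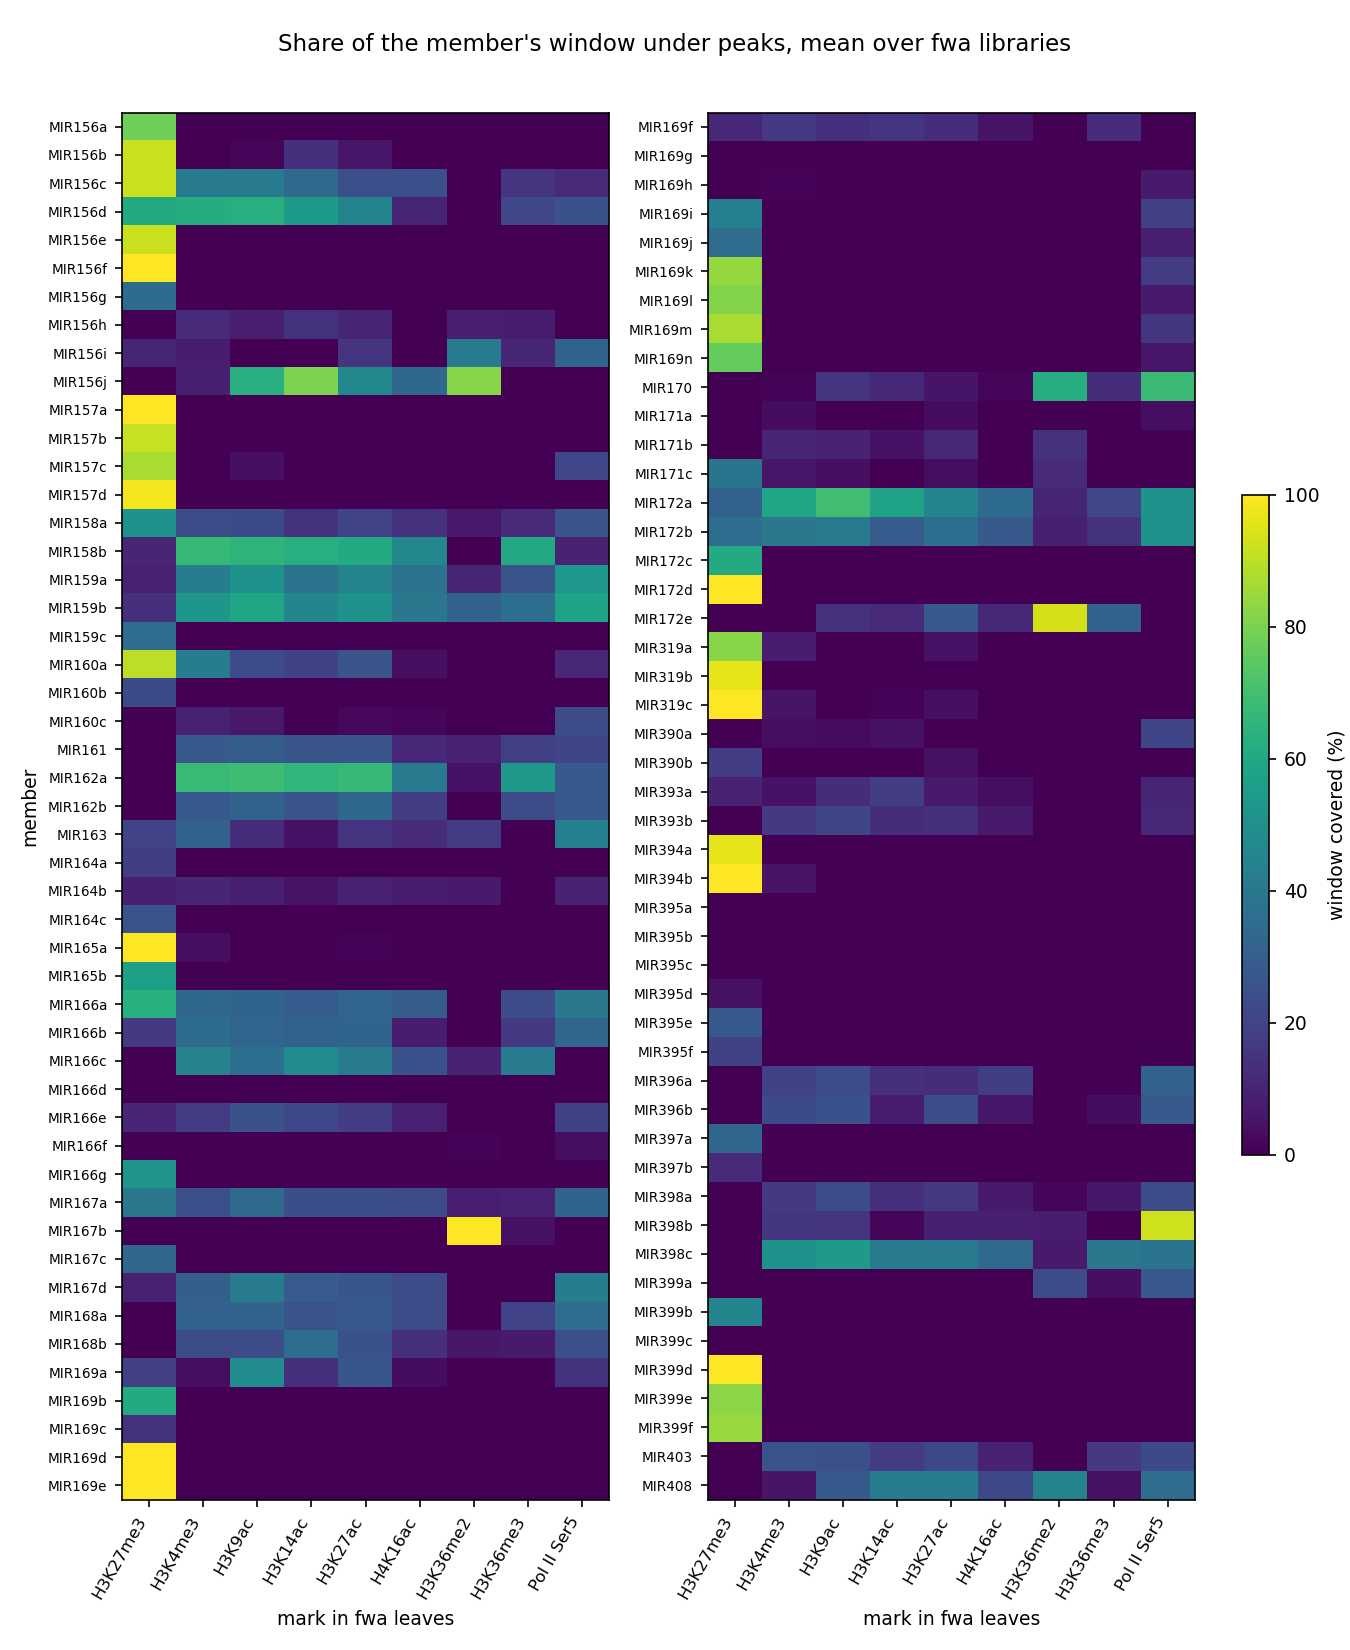
Each of the 97 members (rows, by family) against each mark (columns) in *fwa* leaves. Colour gives the percent of the member's window under peaks, as a mean over libraries (for H3K27me3, the 2 libraries of SET1 and SET2). H3K27me3 was present at 49 members in both libraries, and only 6 of these had H3K4me3 in all 4 libraries. The colours do not show these counts, since a mean does not tell in how many libraries a peak lay.

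Grouped by what their microRNAs target, the members differed in which state was common. The 5 genes whose microRNAs act on the small RNA machinery (MIR162a and MIR162b against DCL1, MIR168a and MIR168b against AGO1, MIR403 against AGO2) had H3K27me3 in 0 of 5 cases, and H3K4me3 and Pol II in all *fwa* libraries in 5 of 5. The 64 genes whose microRNAs target transcription factors had H3K27me3 in both libraries at 37, H3K4me3 in all at 14 and Pol II in all at 11. For the 18 genes of the sulfate, phosphate and copper families the counts were 8, 2 and 4. The 4 genes for auxin perception and trans-acting siRNAs (MIR390 and MIR393) had H3K27me3 in both libraries at none, and the remaining 6 at 4. The groups are small and were formed from knowledge of the targets, so the counts are given without a test.

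The miR156 and miR157 genes, which hold back the SPL factors of the adult phase, had H3K27me3 in both libraries at 7 of 10 and 4 of 4. MIR156a to MIR156f, which encode the same guide, had 780 and 967, 1183 and 991, 1104 and 923, 781 and 578, 1107 and 928, and 1132 and 1132 bp under H3K27me3 in SET1 and SET2. All 6 were therefore covered over most of their windows. MIR156c and MIR156d differed from the other 4 in also having H3K4me3, over 314 to 544 bp and 610 to 778 bp in the 4 libraries. The annotated windows of MIR156i and MIR156j overlap SPL4 and SPL9 (with OEP16-3), which are themselves miR156 targets, and peaks there cannot be assigned. Whether these 2 positions are separate microRNA genes is uncertain.

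Genes for the same guide could also differ. The 7 MIR166 genes, which act on HD-ZIP III factors of organ polarity, encode an identical guide. MIR166a had 867 and 618 bp under H3K27me3 and MIR166g 627 and 536 bp, while MIR166c, MIR166d and MIR166f had 0 and 0 bp. MIR166c instead had 429 to 587 bp of H3K4me3. MIR166a had both marks, with 359 to 471 bp of H3K4me3, and Pol II over 389 to 574 bp in the 6 *fwa* libraries. In total 8 guide sequences came from members with H3K27me3 in both libraries and also from members with it in neither. In the miR172 family, which acts on AP2-like repressors of flowering, genes with different guides also differed in their marks. MIR172c and MIR172d, whose guide ends in g, had H3K27me3 (831 and 557 bp, 1124 and 1124 bp) and no H3K4me3. MIR172a and MIR172b, whose guide ends in u, had H3K4me3 in all libraries (374 to 835 bp and 333 to 529 bp) and H3K27me3 in SET2 only (684 and 794 bp). MIR172e had neither mark, and its window was covered by H3K36me2 over 981 and 1125 bp.

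Further families followed the same division. H3K27me3 lay in both libraries at 3 of 3 MIR319, 2 of 2 MIR165, 2 of 2 MIR394 and 2 of 2 MIR397 genes, 9 of 14 MIR169 genes, 4 of 6 MIR399 and 2 of 6 MIR395 genes. It lay in both at 0 of 3 MIR398 genes (copper/zinc superoxide dismutases) and at 0 of 2 MIR396 genes (growth-regulating factors). The 5 members with the most H3K27me3 were MIR169e (1217 bp), MIR157d (1202 ± 26.9 bp), MIR319c (1199 bp), MIR169d (1154 bp) and MIR156f (1132 bp), and 9 members were covered from end to end in both libraries. The most H3K4me3 lay at MIR162a (770 ± 84.6 bp, n = 4), MIR158b, MIR156d, MIR172a and MIR159b. MIR162a and MIR158b were also among the first 5 for all 4 acetylation marks and H3K36me3, and MIR159b for all of these but H3K14ac. MIR172a and MIR156d were among the first 5 for H3K9ac and H3K14ac, and MIR159a for H3K27ac and H4K16ac. MIR156j led H3K14ac with 857 ± 235 bp, in the window shared with SPL9. MIR408 (H3K27ac), MIR166c (H3K36me3) and MIR398c (H4K16ac and H3K36me3) completed these lists.

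Signal at some members lay in windows shared with other genes. The windows of 29 members overlapped another gene (24 of them a protein-coding gene), and those of 15 members overlapped the window of another member. The 5 members with the most H3K36me2 were MIR167b (1109 bp), MIR172e, MIR156j, MIR170 and MIR408, and 4 of these windows hold part of another gene. In the 68 members whose windows hold no other gene, the share with H3K36me2 was 8.82% rather than 18%. Pol II covered most at MIR398b, with 937, 1116, 1006, 908, 1116 and 1116 bp in the 6 *fwa* libraries, followed by MIR170, MIR159b, MIR159a and MIR167d. The MIR398b window also holds the U2.17 and U5.10 small nuclear RNA genes and parts of 2 others, so its Pol II cannot be assigned to the hairpin.

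Each fusion was next set beside the *fwa* libraries of its own SETs, to ask whether members gained or lost a mark. Gained means a peak in every fusion library and in no *fwa* library, counted over members unmarked in all *fwa* libraries of those SETs. Lost is the reverse, counted over members marked in all of them. The same rule over all nuclear genes gives the background percentage, printed beside each count. Over 32 comparisons there were 22 gained and 27 lost calls, at 27 members, and 8 of the calls were in the control fusion EYFP-ZF. Pooled over the same comparisons, gained calls made up 0.724% of chances over all nuclear genes and lost calls 1.69%. The pooled shares of the members are given below with the TRB1-ZF regions. The number of members marked was tested with an exact two-sided permutation test over libraries. Its p was 0.333 at the lowest over the 32 comparisons, before any adjustment, and 0.333 is also the smallest that 2 against 2 libraries can give, and no design here could go below 0.0667, so the test could not pass a threshold of 0.05. Of the 49 calls only 3 were kept under every alternative setting tried. They were the gain of H3K27me3 at MIR396a in MSI1-ZF and the loss of the Pol II Ser5 peak at MIR157c in ELF7-ZF and CPL2-ZF. Only 8 were kept with peaks of at least 3-fold and 13 when at least 200 bp had to be covered. Fusions tested for the same mark in the same SETs share their *fwa* libraries, so a call that recurs between them is not independent.

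**Figure D4:**
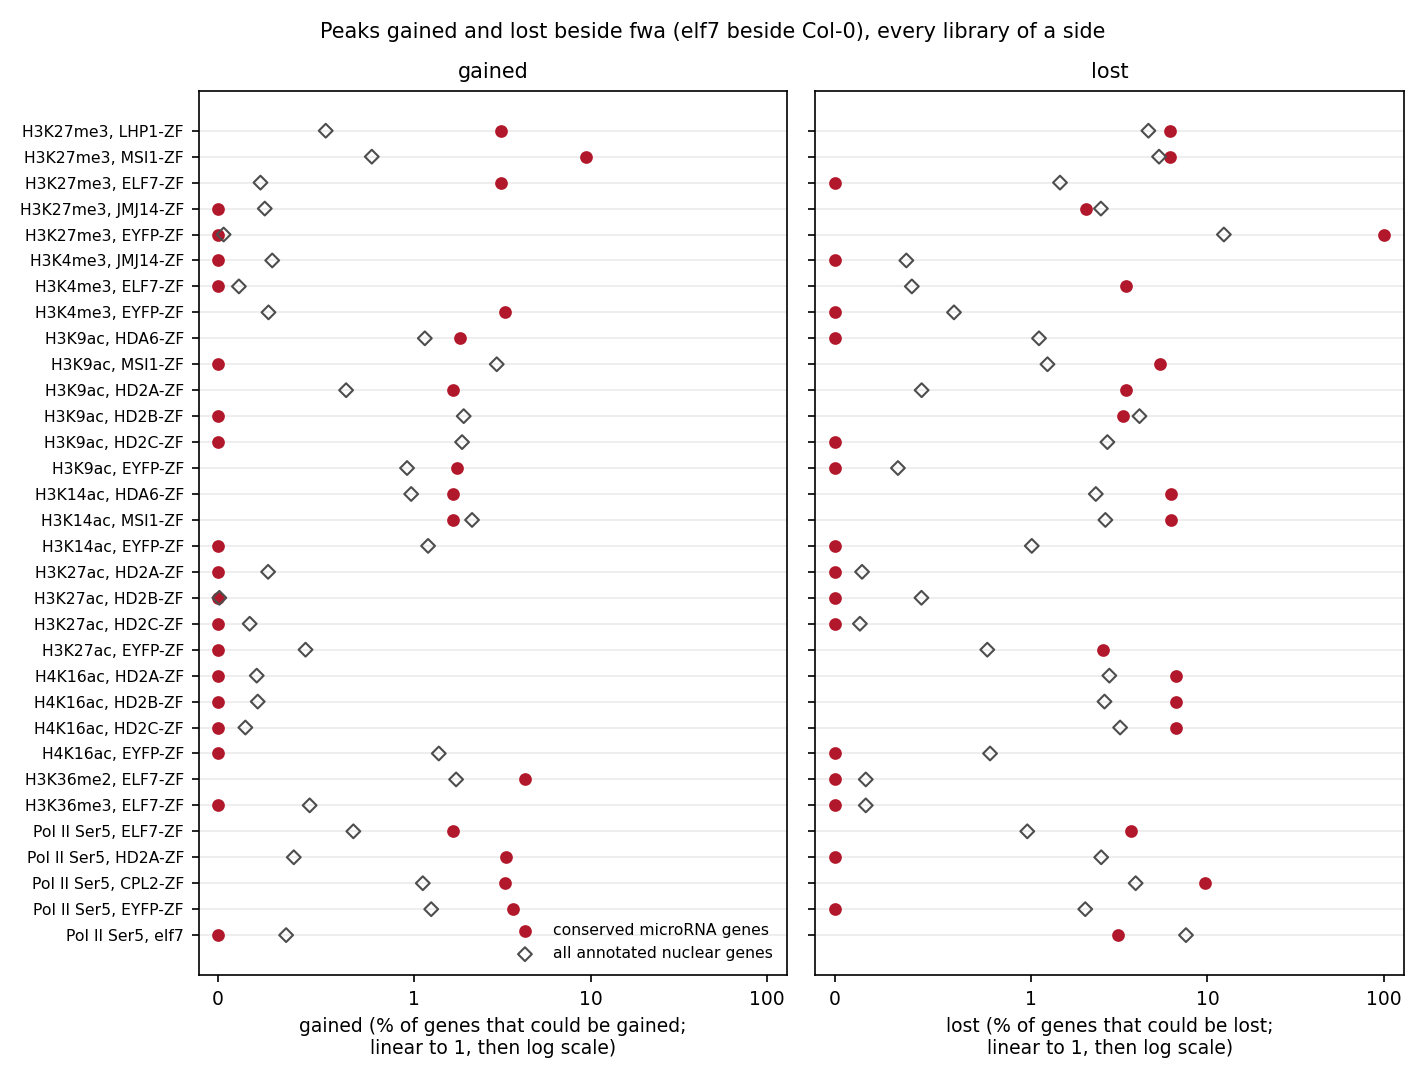
Percent of the genes that could be gained (left) or lost (right) that were called in each of the 32 comparisons (rows), for the members (filled points) and all nuclear genes (open diamonds), on an axis that is linear to 1 and logarithmic above. The number of members behind a point is at most 3, so that a single member sets most of them, and the point at 100% is 2 of 2 members (H3K27me3 lost in EYFP-ZF).

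The 14 calls for H3K27me3 are given by line, each beside the share of all genes. With LHP1-ZF 1 of 32 unmarked members gained it (0.549% of all genes did) and 3 of 49 marked members lost it (4.63%). For MSI1-ZF 3 of 32 gained (0.784%) and 3 of 49 lost it (5.32%). In ELF7-ZF 1 of 32 gained (0.216%) and 0 of 49 lost it (1.46%), and in JMJ14-ZF 0 of 32 gained (0.238%) and 1 of 49 lost it (2.49%). The number of members marked was 57 and 57 in *fwa*. Against this, MSI1-ZF had 55 and 52 marked members, LHP1-ZF 51 and 52, JMJ14-ZF 52 and 58 and ELF7-ZF 57 and 58. The losses were near the share of all genes. MIR319c, which was covered from end to end, had 1199 bp in both *fwa* libraries and in both of the LHP1, MSI1 and ELF7 fusions, and 1199 and 1135 bp in JMJ14-ZF.

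MIR395a gained H3K27me3 in 3 lines. It is 1 of the 6 genes of miR395, which targets ATP sulfurylases and a sulfate transporter, and lies at chr1:9363196-9363288 on the minus strand. It had 0 and 0 bp in *fwa* against 248 and 171 bp in LHP1-ZF, 429 and 335 bp in MSI1-ZF, 231 and 172 bp in ELF7-ZF, and 227 and 0 bp in JMJ14-ZF. The fusion and *fwa* libraries did not overlap in the first 3 lines. MIR395b, which starts on the other strand and whose window overlaps that of MIR395a, had 154 and 60 bp in MSI1-ZF and 160 and 0 bp in LHP1-ZF, and 0 bp in *fwa*. A region of the TRB1-ZF list lay in both windows, with a summit of 4.22-fold. Regions of that list were taken as bound when their first listed summit reached 4-fold, which this one does not, so the nearest bound region by this rule was 3487 and 3205 bp away. The list (FLAG ChIP-seq of flower buds, labelled TRB1-ZF) was used for the sites of the zinc finger, since the study's methods take these from FLAG peaks in flower buds of plants with the zinc finger and no other such list was used here. TRB1 is itself a protein that binds telomere-like repeats, so binding through the zinc finger and through TRB1 cannot be told apart in it. The MIR395a peaks in MSI1-ZF were 3.77-fold and 2.42-fold enriched at the summit, above 61.4% and 11% of the peaks in their lists.

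The members that lost H3K27me3 had short stretches of it to begin with. MIR163, whose microRNA targets methyltransferases, had 221 and 311 bp in *fwa* and 0 bp in both libraries of LHP1-ZF and of MSI1-ZF. It had 247 and 0 bp in ELF7-ZF and 0 and 275 bp in JMJ14-ZF, a peak in 1 of 2 libraries in each. MIR167d, which acts on auxin response factors, had 181 and 72 bp in *fwa* and none in the same 2 lines. MIR395f (207 and 235 bp in *fwa*) was lost in LHP1-ZF, MIR397b (221 and 39 bp) in MSI1-ZF and MIR164b (160 and 45 bp), a regulator of CUC boundary genes, in JMJ14-ZF. In EYFP-ZF 0 of 88 gained (0.0281%) and 2 of 2 lost it (12.4%), MIR156a and MIR156e, but both lists of that line were short. These 2 genes had 158 and 86 bp, and 70 and 169 bp, in the *fwa* libraries of SET14, against 780 and 967 bp, and 1107 and 928 bp, in SET1 and SET2.

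Few members gained or lost an H3K4me3 peak, a count that does not register a weaker peak that is still called. In JMJ14-ZF 0 of 53 members gained (0.276%) and 0 of 29 lost it (0.364%), and in ELF7-ZF 0 of 53 gained (0.106%) and 1 of 29 lost it (0.392%). The loss was at MIR163, with 322 and 269 bp in *fwa* and 0 and 0 bp in ELF7-ZF, and 0 and 238 bp in JMJ14-ZF. In EYFP-ZF 2 of 61 gained (0.257%) and 0 of 32 lost it (0.607%). The gains were at MIR390a, which starts trans-acting siRNA production from TAS3 (128 and 60 bp), and at MIR408 (146 and 107 bp), a copper-responsive gene. Both had 0 bp in the *fwa* libraries of SET14, but in SET2 *fwa* had 167 bp at MIR390a and 134 bp at MIR408.

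Acetylation was measured for 4 residues. For H3K9ac, HDA6-ZF gained 1 of 55 (1.15%) and lost 0 of 37 (1.11%), and MSI1-ZF gained 0 of 55 (2.94%) and lost 2 of 37 (1.24%). HD2A-ZF gained 1 of 60 (0.653%) and lost 1 of 29 (0.442%). HD2B-ZF, with 1 library, gained 0 of 60 (1.91%) and lost 1 of 30 (4.12%), and HD2C-ZF, also with 1, gained 0 of 60 (1.87%) and lost 0 of 30 (2.71%). EYFP-ZF gained 1 of 57 (0.964%) and lost 0 of 36 (0.321%). The counts are at most 2 a comparison. The largest difference in covered length was at MIR169a, which acts on NF-YA factors, with 549 and 883 bp in *fwa* and 0 and 0 bp in MSI1-ZF, in a window that also holds AT3G13404. HDA6-ZF of the same SET had 473 and 645 bp there. The other changes were smaller. MIR172e lost H3K9ac in MSI1-ZF (171 and 173 bp in *fwa*), MIR393b in HD2B-ZF (86 and 228 bp in *fwa*), and MIR319c gained 87 and 129 bp in HDA6-ZF. MIR160a gained 30 and 154 bp in HD2A-ZF and MIR390a 178 and 123 bp in EYFP-ZF. For MIR160a, *fwa* libraries of other SETs had 377 to 493 bp. For MIR172e they had 0 and 288 bp in SET15, 191 and 296 bp in SET3 and 0 bp in SET6. For MIR169a they ranged from 0 to 1147 bp. For MIR390a, *fwa* had 0 and 213 bp in SET7.

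For H3K14ac, HDA6-ZF gained 1 of 60 (0.985%) and lost 2 of 32 (2.33%), MSI1-ZF gained 1 of 60 (2.13%) and lost 2 of 32 (2.64%), and EYFP-ZF gained 0 of 57 (1.2%) and lost 0 of 32 (1.01%). MIR319c, a regulator of TCP factors with H3K27me3 over its whole window, gained 129 and 180 bp in HDA6-ZF, as it did for H3K9ac. MIR172c gained 91 and 199 bp in MSI1-ZF. MIR172e (167 and 195 bp in *fwa*) had 0 bp in HDA6-ZF and MSI1-ZF, MIR170 (59 and 434 bp) had 0 bp in HDA6-ZF, and MIR396a (90 and 142 bp) had 0 bp in MSI1-ZF. In *fwa* of SET15, H3K14ac covered 0 and 194 bp at MIR172e, 0 and 0 bp at MIR170 and 211 and 200 bp at MIR396a. There it covered 0 and 55 bp at MIR319c and 0 and 0 bp at MIR172c. For H3K27ac no member was called in the HD2 lines. HD2A-ZF gained 0 of 56 (0.255%) and lost 0 of 23 (0.138%), HD2B-ZF gained 0 of 56 (0.00621%) and lost 0 of 23 (0.441%), and HD2C-ZF gained 0 of 56 (0.161%) and lost 0 of 23 (0.127%). EYFP-ZF gained 0 of 56 (0.446%) and lost 1 of 39 (0.777%), MIR171b, with 198 and 326 bp in *fwa*. MIR171b had 0 and 0 bp of H3K27ac in *fwa* of SET3 and 253 and 0 bp in *fwa* of SET4.

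For H4K16ac the only called member was MIR396a. HD2A-ZF gained 0 of 67 (0.197%) and lost 1 of 15 (2.78%), HD2B-ZF gained 0 of 67 (0.202%) and lost 1 of 15 (2.61%), and HD2C-ZF gained 0 of 67 (0.139%) and lost 1 of 15 (3.2%). EYFP-ZF gained 0 of 60 (1.38%) and lost 0 of 31 (0.791%). The HD2 lists held 10188 to 14703 peaks and those of *fwa* 12389 to 17474, and the members marked ranged from 16 to 22 against 17, 19 and 30.

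MIR396a carried the most calls of any member, 6 of 49, in 4 fusion lines. Its microRNA restrains growth-regulating factors, which drive cell proliferation in leaves. The gene (AT2G10606) lies at chr2:4142323-4142473 on the minus strand and its window holds no other gene. A TRB1-ZF region (chr2:4141416-4142698) covers the hairpin, with a summit of 10.1-fold enrichment 726 bp downstream of the gene start, above 96.6% of all TRB1-ZF regions of at least 4-fold. H3K27me3 was at 281 and 436 bp in MSI1-ZF and at 0 and 0 bp in *fwa*, with peak summits of 3.77-fold and 5.4-fold. LHP1-ZF had 0 and 133 bp, ELF7-ZF 0 and 147 bp and JMJ14-ZF 0 and 314 bp, so those lines were marked in 1 of 2 libraries.

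Acetylation peaks at MIR396a were missing from some fusion lines and kept in others, and H3K27ac was also missing from some controls. H3K9ac covered 197, 259 and 149 bp in the *fwa* libraries of SET3 and SET6 and 0 and 0 bp in HD2A-ZF, with 140 bp in HD2B-ZF and 161 bp in HD2C-ZF. In SET7, H3K9ac covered 334 and 326 bp in *fwa*, 356 and 349 bp in HDA6-ZF and 268 and 209 bp in MSI1-ZF. H4K16ac covered 131, 227 and 199 bp in *fwa* and 0 bp in all 6 libraries of the 3 HD2 lines. In EYFP-ZF, H3K9ac covered 305 and 302 bp and H4K16ac 259 and 276 bp, against 149 to 334 bp and 131 to 257 bp over all *fwa* libraries. H3K14ac was at 0 and 0 bp in MSI1-ZF against 90 and 142 bp, while HDA6-ZF and EYFP-ZF each had a peak in 1 of 2 libraries (132 and 139 bp). H3K27ac was also 0 bp in both *fwa* libraries of SET4. In SET3 it covered 132 and 185 bp in *fwa*, 212 bp in HD2C-ZF and 0 bp in HD2A-ZF and HD2B-ZF. Pol II lay at MIR396a in all 18 of its leaf libraries, with 311 and 387 bp in HD2A-ZF and 307 to 387 bp in *fwa*.

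MIR396b encodes a guide that differs from that of MIR396a in its last base and has no TRB1-ZF region in its window. It lies at chr5:13611798-13611932, and the nearest such region is 5172 bp away. It had no H3K27me3 in any library. H3K9ac was kept in HD2A-ZF, at 182 and 238 bp against 180, 182 and 201 bp in *fwa*. H4K16ac was 0 bp in all 6 libraries of the HD2 lines there too, but the *fwa* libraries of SET3 and SET5 had only 0, 0 and 9 bp. The difference between the 2 genes was not tested.

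**Figure D5:**
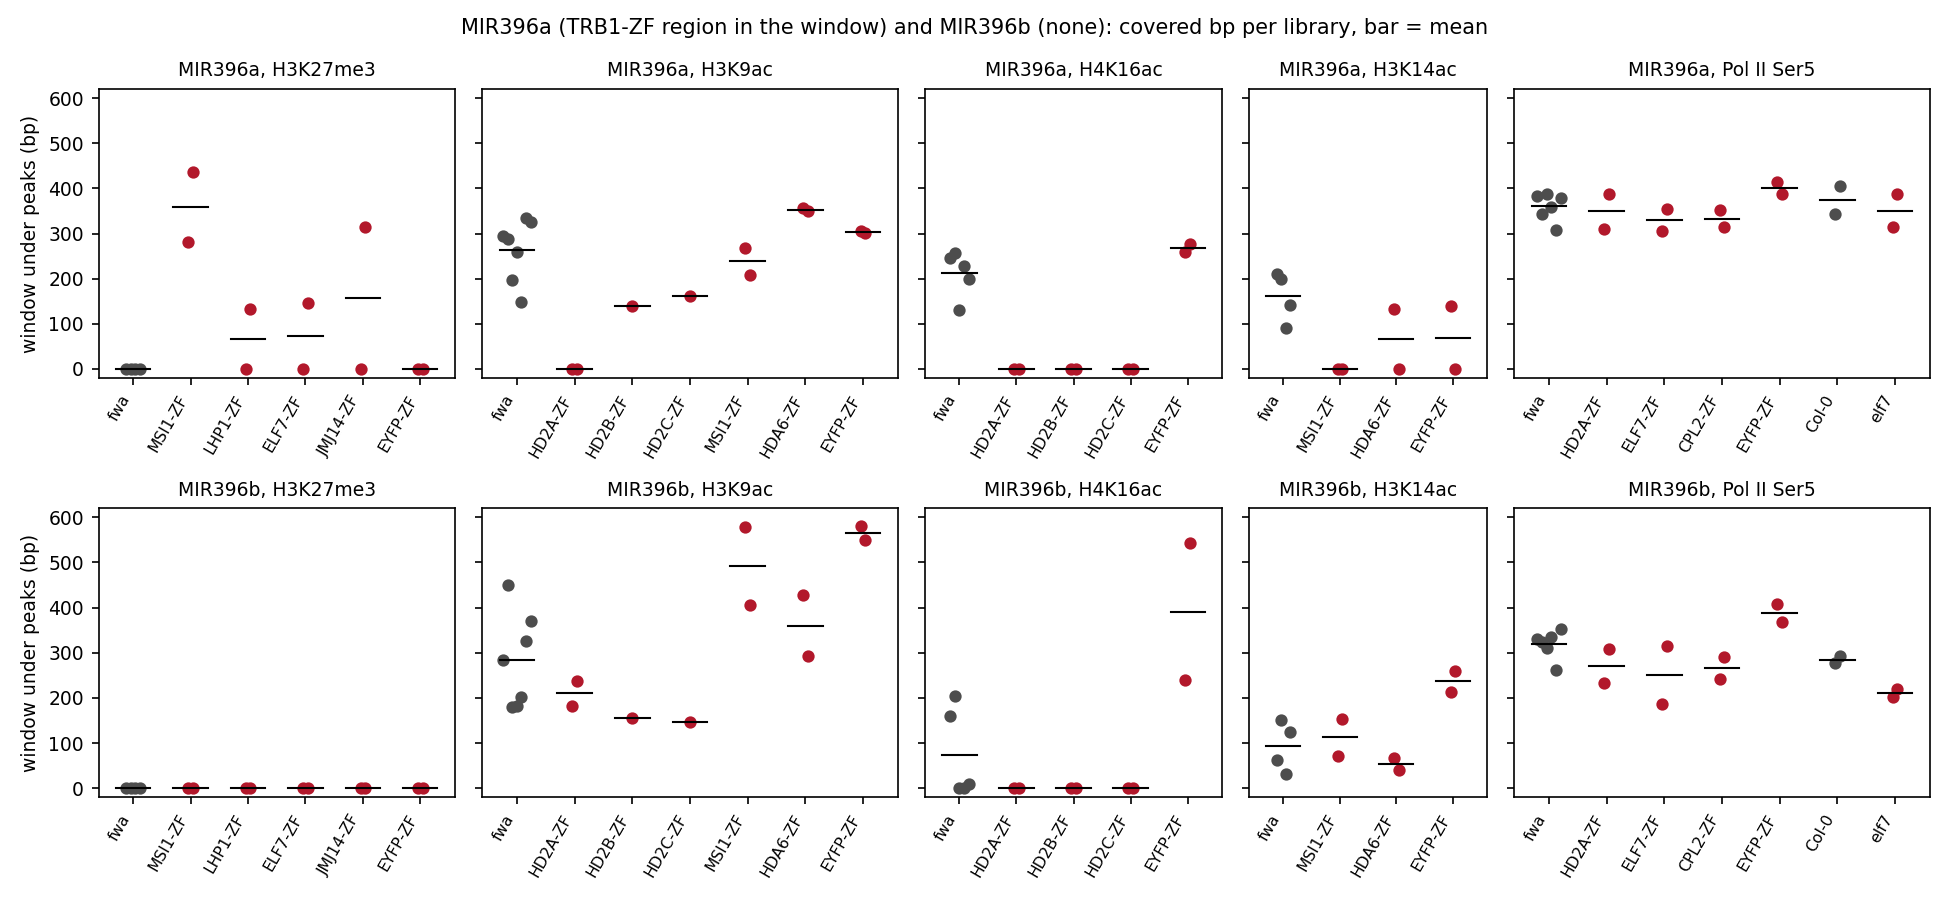
Bp of the window under peaks (vertical axis) at MIR396a and MIR396b in each library (points) of *fwa* and the fusion lines, for H3K27me3, H3K9ac, H4K16ac, H3K14ac and Pol II Ser5 (with Col-0 and *elf7* for Pol II), bars being means over libraries of all SETs. At MIR396a, H4K16ac is 0 bp in the 6 libraries of the HD2 lines and 131 to 257 bp in *fwa*, and H3K27me3 reaches 281 and 436 bp in MSI1-ZF.

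H3K36 methylation was measured in ELF7-ZF. For H3K36me2, 3 of 71 members gained it (1.73%) and 0 of 9 lost it (0.157%), and for H3K36me3 0 of 68 gained (0.467%) and 0 of 19 lost it (0.157%). MIR166a had 111 and 206 bp of H3K36me2, MIR168a 152 and 130 bp and MIR171a, which acts on GRAS factors of the meristem, 164 and 246 bp, all with 0 and 0 bp in *fwa*. The number of members marked was 19 and 25 in ELF7-ZF against 17 and 18 in *fwa* (exact permutation p = 0.333). The ELF7-ZF lists also held more peaks, 29961 and 19941 against 25108 and 19042, and the part this played was not tested. Of the 3 windows only that of MIR168a held a TRB1-ZF region of at least 4-fold (6.53-fold). Weaker regions, below the rule for bound ones, lay at MIR171a (3.86-fold) and MIR166a (3.01-fold). Regions of any strength lay at 41.2% of members and 47.9% of all genes.

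Pol II Ser5 peaks changed at few members in the fusion lines. CPL2 removes the phosphate from Ser5, so less Pol II and less phosphorylation cannot be told apart in CPL2-ZF. In ELF7-ZF 1 of 60 gained (0.69%) and 1 of 27 lost it (0.981%), in HD2A-ZF 2 of 60 gained (0.386%) and 0 of 27 lost it (2.5%), and in CPL2-ZF 2 of 61 gained (1.12%) and 3 of 31 lost it (3.92%). EYFP-ZF gained 2 of 55 (1.25%) and lost 0 of 38 (2.03%). MIR157c was called lost in ELF7-ZF and in CPL2-ZF. It had 220 and 382 bp in *fwa* of SET8 and SET9 and 347 and 340 bp in *fwa* of SET10 and SET11, against 0 bp in all 4 fusion libraries. It also had 0 and 274 bp in *fwa* of SET14, and 307 and 0 bp in Col-0, so its peak was missing from some controls as well. H3K27me3 covered the same window in *fwa* (1054 and 1069 bp) and in ELF7-ZF (1108 and 915 bp).

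The remaining Pol II calls are given with the *fwa* libraries of other SETs where these differ. MIR160a (466 and 136 bp in *fwa*) and MIR164b (253 and 259 bp) were at 0 bp in CPL2-ZF. MIR156i, in the SPL4 region, had 677 and 1040 bp in ELF7-ZF and 382 and 330 bp in HD2A-ZF against 0 and 0 bp in *fwa*, but 914 and 1157 bp in *fwa* of SET14. MIR169h had 156 and 183 bp in HD2A-ZF and 93 and 224 bp in CPL2-ZF, against 0 bp in their *fwa* and 270 and 252 bp in *fwa* of SET14. The spread between *fwa* libraries of different SETs was thus as large as these gains. MIR169a gained 20 and 173 bp in CPL2-ZF. In EYFP-ZF, MIR169g gained 309 and 225 bp and MIR395b 98 and 112 bp, with 46 and 47 members marked against 40 and 40 in *fwa*. The lists of SET8 and SET9 were uneven, with 11758 and 19505 peaks in *fwa*, 16206 and 18206 in ELF7-ZF and 15108 and 12753 in HD2A-ZF.

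In *elf7* Pol II was present at 34 and 35 members, against 38 and 44 in Col-0 (exact permutation p = 0.333, the smallest possible with 2 against 2 libraries). As means over libraries, this was 35.6% of members in *elf7* against 42.3% in Col-0. Over all nuclear genes the shares were 36.3% against 44%, so the lower count was not particular to the members. The bp under Pol II peaks, summed over members, were 12917 and 13574 against 15176 and 19698. The libraries did not overlap in either measure, but the second *elf7* list was also shorter, with 10611 peaks against 14911 in Col-0 (17578 against 17391 in the first). By the call rule 0 of 47 members gained Pol II (0.347%) and 1 of 32 lost it (7.56%). The loss was at MIR171a, which had only 102 and 5 bp in Col-0. With so few members the shares were not tested against each other. In all, 31 of the 32 members with Pol II in both Col-0 libraries had it in at least 1 *elf7* library. MIR396a kept 314 and 387 bp (344 and 405 bp in Col-0) and MIR168a 391 and 412 bp (360 and 470 bp).

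ELF7 itself was found at many members in flower buds. Peaks of ELF7-FLAG lay at 42 members in the first replicate (43.3%, against 43.4% of all genes). At 2-fold or more they lay at 36 in the second (37.1%, against 31.1%). Peaks in both lay at 35 members (36.1%, against 30.4% of all genes, 36.9% of protein-coding genes and 20.1% of other microRNA genes). All of MIR162a, MIR162b, MIR166a, MIR168a, MIR396a, MIR396b, MIR403, MIR159a and MIR159b were among them. So were MIR165a, MIR165b, MIR172d, MIR319a, MIR394a and MIR394b, which had H3K27me3 in both *fwa* leaf libraries. MIR166c and MIR168b, with H3K4me3 in all *fwa* leaf libraries, had no ELF7-FLAG peak. None of the MIR169, MIR395, MIR397 or MIR399 genes had a peak in both replicates. HD2A-FLAG, with only 415 peaks, lay at 2 members, MIR170 (200 bp of the window) and MIR398b (49 bp), which is 2.06% of members and 1.32% of all genes. No test was made on these lists.

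The TRB1-ZF list comes from a single library called against *fwa* and holds 19986 regions, of which 6091 reach 4-fold at their first summit. Regions of at least 4-fold lay in the windows of 15 members (15.5%, against 18.7% of all genes and 9.61% of other microRNA genes). By summit enrichment they were MIR396a, MIR156e (9.33-fold), MIR161 (8.6-fold), MIR159a (7.31-fold), MIR168a (6.53-fold), MIR156a (5.97-fold), MIR156g, MIR166f, MIR166g, MIR169a, MIR408, MIR157d, MIR403, MIR169k and MIR169l, the last 2 sharing a region. At these members there were 12 of the 49 calls, spread over 6 members, and 6 of those 12 were at MIR396a. The other 37 calls were at 21 members. The rule on the first summit matters here, because with any listed summit of at least 4-fold MIR160a (6.94-fold), MIR395a and MIR395b (both 4.22-fold) join, and 19 calls then lay at 9 called members among 18 with a region and 30 calls at 18 called members elsewhere (chosen after seeing the data). Pooled over the 32 comparisons and by the first summit, gained calls made up 1.52% of 263 chances at members with a region, 1.16% of 1551 at other members and 1.03% at all genes with a region. Lost calls made up 4.35% of 184, 2.48% of 766 and 1.73%. Most of the 8 lost calls at members with a region were at MIR396a, where the HD2 lines shared their *fwa* libraries for H4K16ac. The pool includes the control EYFP-ZF, in which the calls at MIR156a, MIR156e and MIR408 lay. It also includes *elf7* against Col-0, which has no fusion. MIR161, MIR159a and MIR403 had such a region over the hairpin or upstream of it and no call in any line.

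The region around the start of many members held the telobox AAACCCTA, a motif known from targets of plant Polycomb proteins. It was searched on both strands from 1000 bp upstream to 200 bp downstream of the start in RefSeq TAIR10.1, and overlapping matches were kept. Some members, such as MIR166b, MIR166c and MIR167a, had matches only downstream of the hairpin start. MIR395e and MIR395f shared a match. It was found at 37 of 97 members (38.1%), against 19.3% of all genes, 22.3% of other microRNA genes and 19.4% of protein-coding genes. Among members with H3K27me3 in both *fwa* libraries 25 of 49 (51%) held it, and among those with it in neither 5 of 32 (15.6%). Over all genes the corresponding shares were 20.8% and 19.1%. Of the 15 members with a TRB1-ZF region 7 held the telobox (46.7%), MIR396a among them, and of the other 82 members 30 (36.6%). The stretches below show it, in capitals, near the starts of members described above, on the strand that carries it.
MIR396a, 28 bp upstream, chr2:4142494-4142501: tagagcagacgAAACCCTAattgtggaaag
MIR166a, 36 bp upstream, chr2:19176072-19176079: tatatattcagAAACCCTAgattctataat
MIR156f, 57 bp upstream, chr5:9136049-9136056: catacatctatAAACCCTAgccactttaaa
MIR169d, 79 bp upstream, chr1:20039688-20039695: ttgttatggcaAAACCCTAactcatgatga
MIR169e, 53 bp upstream, chr1:20041465-20041472: ttgttatggcaAAACCCTAactcatgatga
MIR156a, 213 bp upstream, chr2:10676779-10676786: gatttagacaaAAACCCTAgatttgatctt
The stretches of MIR169d and MIR169e were identical. A match describes these letters only, and binding was not measured here.

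The proteins that make microRNAs and the genes that microRNAs target were read in the same way. Of 12 listed factors of microRNA biogenesis 11 were matched, and all 11, among them DCL1, HYL1, SE, HEN1 and AGO1, had H3K4me3, H3K14ac, H3K27ac, H3K36me2 and H3K36me3 in every *fwa* library. H3K9ac was in every *fwa* library at 10 of the 11 (not HEN1). H4K16ac was so at only 3 (DCL1, SE and CBP20) and Pol II at only 4 (DCL1, SE, AGO1 and HESO1). H3K27me3 overlapped the windows of 2, AGO1 and DDL. Over all comparisons there were 0 gained calls in 70 chances (0.724% over all genes) and 4 lost calls in 249 (1.61%, against 1.69%). The lost calls were H3K9ac at HYL1 and HEN1 in HD2B-ZF and at HEN1 in HD2C-ZF, each with 1 library, and Pol II at ABH1 in HD2A-ZF. Of 42 listed target genes 38 were matched, of which 31 (81.6%) had H3K4me3 in all *fwa* libraries and 4 (10.5%) had H3K27me3 in both, namely CUC2 (a target of miR164), SMZ and SNZ (of miR172) and LAC4 (of miR397). Pooled over comparisons, the targets had 5 gained calls in 300 chances (1.67%, against 0.724% over all genes) and 10 lost calls in 787 (1.27%, against 1.69%). Of the gained calls 4 were at SMZ (H3K4me3 in JMJ14-ZF, H3K9ac in MSI1-ZF and HD2B-ZF, H3K14ac in MSI1-ZF) and 1 at SPL15. Of the lost calls 3 were in the control EYFP-ZF (SPL15, SPL3 and SPL10) and 1 in *elf7* (ARPN).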

How the data were processed

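Peak lists of ChIP-seq libraries from Arabidopsis leaves (104) and FLAG experiments (4) were used as deposited. According to the study's methods and the submitters' processing notes, the authors placed trimmed reads on TAIR10 by Bowtie2 2.1.0 (1 site, perfect match), used SAMtools 1.9 to drop duplicates, and ran MACS2 2.1.1 on each library separately. Regions recurrent in Col-0 FLAG experiments were removed from FLAG lists, and the zinc finger list was called against *fwa*. The control used for the leaf lists is not given in the sources used here. The deposited columns were the peak's position, its fold enrichment at the summit (a ratio to local background), the −log10 p and −log10 q of the authors' caller and an integer score from the same caller. Only positions and folds entered a result, and folds were compared within a list only. In 2 of the lists (ELF7-FLAG replicate 1 and HD2A-FLAG) the authors deposited positions alone. All peak ends lay within the chromosome lengths of TAIR10.1, the RefSeq build used for genes and sequences. Stringency sets which weak peaks appear, so absence of a peak is not absence of a mark.

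Windows, overlaps and counts were computed with Python 3.11.15, numpy 2.4.6 and scipy 1.17.1, and figures with matplotlib 3.10.9. The call rule was checked on simulated lists. The members, gene lists and rules were chosen with earlier results of these data known. Members named were those called in a comparison with 2 or more fusion libraries, those with a TRB1-ZF region of at least 4-fold at its first listed summit, the 5 with most covered bp for each mark in *fwa*, and any without a peak; others were named after their values were seen. HD2B-ZF and HD2C-ZF had 1 H3K9ac library each. Amplicon bisulfite files of *FWA* were left out because they cover no member. Depth is unknown, so no interval on a count could be given. Alternatives changed the window, the overlap, the peak strength, the members and the libraries.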

Additional observations from a re-analysis of the deposited data

How the results depend on the processing

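Of 64 counts of gained or lost members, the window fixed at the start moved 5, the members without another gene in the window 7, the gene alone 14, peaks of at least 3-fold 27 and a covered length of at least 200 bp 29, each by more than 1.5 times, but no count exceeded 4 under these settings. The calls kept, of 49, were 45, 40, 32, 8 and 13. Requiring the difference within each replicate number (replicate block) moved none of 60 counts, with 22 gained and 26 lost calls in all (48 of 49 kept); the numbers name libraries of the same SET and no sample is known to be shared. With the gene alone, the moved counts became 4 (H3K14ac lost in MSI1-ZF), 1 (H3K27me3 lost in EYFP-ZF; H3K14ac lost in HDA6-ZF and EYFP-ZF; H3K9ac gained in HD2C-ZF; H4K16ac gained in EYFP-ZF; Pol II gained in HD2A-ZF and *elf7*) or 0 (6 others). With the start window they were 2 (Pol II gained in ELF7-ZF), 1 (H3K4me3 gained in EYFP-ZF, Pol II gained in CPL2-ZF) and 0 (H3K9ac lost in HD2B-ZF, H4K16ac lost in HD2C-ZF). With at least 200 bp the moved counts ranged from 0 to 3 (H3K27me3 lost in JMJ14-ZF), with 3-fold peaks from 0 to 3 (H3K27me3 lost in ELF7-ZF), and among members without another gene from 0 to 1.

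With any listed summit of a TRB1-ZF region at 4-fold or more (chosen after seeing the data), 18 members in place of 15 had a region and 19 calls in place of 12 lay at them. Leaving out a replicate number let more differences pass, because fewer libraries had to agree: 83 gained and 125 lost calls without replicate 1, 77 and 109 without replicate 2. Over lines, gained counts then ranged from 0 to 5 for H3K27me3, 0 to 4 for H3K4me3, 0 to 5 for H3K9ac, 1 to 4 for H3K14ac, 0 to 4 for H3K27ac and H4K16ac, 5 to 7 for H3K36me2, 1 for H3K36me3 and 1 to 9 for Pol II. Lost counts ranged from 2 to 9 for H3K27me3, 1 to 5 for H3K4me3, 0 to 4 for H3K9ac, 4 to 7 for H3K14ac, 0 to 5 for H3K27ac, 2 to 13 for H4K16ac (the highest in HD2C-ZF without replicate 1), 0 to 3 for H3K36me2, 0 to 5 for H3K36me3 and 0 to 10 for Pol II (7 to 10 in *elf7*). The shares of members marked in *fwa* moved with the gene alone to 29.4% (H3K4me3), 30.2% (H3K9ac), 28.9% (H3K14ac), 27.5% (H3K27ac), 14.9% (H3K36me2) and 15.5% (H3K36me3). With at least 200 bp covered they were 28.9%, 30.6%, 26.3%, 27.7%, 10.8% and 14.4%, and with 3-fold peaks 31.7%, 29.9%, 14.9%, 26.1%, 4.64% and 11.3%, with 15.7% for H4K16ac. Without windows that hold another gene they were 29.4%, 29.8%, 28.3%, 27.2%, 8.82% and 15.4%. The start window moved H3K36me2 to 19.1%. H3K27me3 over all 4 *fwa* libraries was 32.2%, and 58.8% without SET14, a setting chosen after seeing the data. No share turned its order against all genes except Pol II in the start window (36.8% against 30.8%) and with 3-fold peaks (30.9% against 30.5%). Causes were not tested.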
